A study of Mus musculus with 7 samples.

Results

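Among the 5907 cells that the authors kept from dissociated mouse islets, 72 lay in 3 small clusters that carry the names 14_delta, 15_endothelial and 16_delta in their merged cell table. The members were taken by these cluster names alone, which gave 30 cells of 14_delta, 28 of 15_endothelial and 14 of 16_delta. By the markers Mki67 and Top2a, Krt19 and Spp1, and Vip and Prph, they are here called the cycling cluster (14_delta), the duct-like cluster (15_endothelial) and the nerve-like cluster (16_delta). The names of the duct-like and nerve-like clusters in the table go against their genes: the duct-like cluster held 0 UMIs of Kdr and Pecam1, and the nerve-like cluster held 0 and 11 UMIs of Sst, the hormone of delta cells. The cycling cluster held 1269 and 1137 UMIs of Sst, which was the leading hormone in 3 of its 30 cells. Each cluster was set against the large cluster of the class it is named for, 3_delta with 592 cells or 11_endothelial with 139 cells.

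All cells came from pancreatic islets of female C57BL/6 mice aged 10 weeks, isolated with collagenase and made into single cells with Accutase. Both libraries, replicate 1 and replicate 2, were made by droplet 5' capture with extra dNTP at 2 steps and with extensions lengthened to 2 h and 3 min, then stripped of insulin cDNA with Cas9 and read on Nanopore, which can span whole transcripts. Values are given for replicate 1 and then replicate 2. Separate animals are not stated for the libraries, so the spread between them, and any p-value, may be technical. The other samples of the series were not analysed here.

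A cell in S phase copies its DNA with a set of replication enzymes, and in G2 and mitosis it makes kinesins, spindle and kinetochore proteins that are degraded after division, so their transcripts mark dividing cells. In adult islets, endocrine cells divide rarely. Pancreatic ducts are lined by an epithelium of keratin-rich cells that secrete bicarbonate and sit next to islets. Islets are also innervated by parasympathetic neurons of pancreatic ganglia, which derive from the neural crest, use acetylcholine and contain peptides such as VIP. Neurons splice many transcripts in forms of their own.

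Counts are UMIs, unique molecular identifiers that each stand for 1 captured molecule. The kept cells held 11012364 and 12092393 UMIs, with a median of 2110 and 9949 per cell. The cycling cluster had 20 and 10 cells, or 0.415% (95% exact binomial interval 0.254 to 0.641) and 0.915% (0.440 to 1.68) of its library. For the duct-like cluster these were 12 and 16 cells, or 0.249% (0.129 to 0.435) and 1.46% (0.839 to 2.37). The nerve-like cluster had 7 cells in each library, or 0.145% (0.0585 to 0.299) and 0.640% (0.258 to 1.32). These intervals cover counting error only. Nerve-like cells were the deepest, with a median of 12443 and 45677 UMIs, or 5.90 and 4.59 times their library's median. Cycling cells had 3287.5 and 18610.5 UMIs and duct-like cells 2838.5 and 18630. No barcode of a member occurred in both libraries, while 5 barcodes of all kept cells did. The doublet caller Scrublet called 0 members, but it called only 6 and 13 of all kept cells, so doublets cannot be taken as removed. 3 cycling cells of replicate 1 were among the 6% of cells with the highest doublet scores.

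The authors built the clusters from the gene counts of these same cells, so gene levels between clusters are descriptions and carry no test. A gene is called at least 4-fold higher when its CPM (the gene's UMIs in the summed cells of a cluster, scaled to a total of 1000000 UMIs) was 4 or more times the CPM of the large cluster in each library, with at least 5 UMIs in the small cluster. Where the large cluster held fewer than 3 UMIs in a library, 3 UMIs stood in as a floor, and a fold against 0 UMIs is written as "at least". In the small clusters, 0 UMIs of a gene allow a level of up to 46.4 and 16.7 CPM in the cycling, 80.2 and 10.4 CPM in the duct-like, and 35.4 and 10.7 CPM in the nerve-like cluster, by counting error alone. A gene was counted among the genes compared when the 2 clusters together held 5 UMIs in each library. Only the choice between transcripts of a gene was tested. Reads of overlapping genes and of near-identical copies, as among histones, tubulins and the insulin genes, may be split between them, since the counting and its use of strand are not given in the sources used here.

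**Figure D1:**
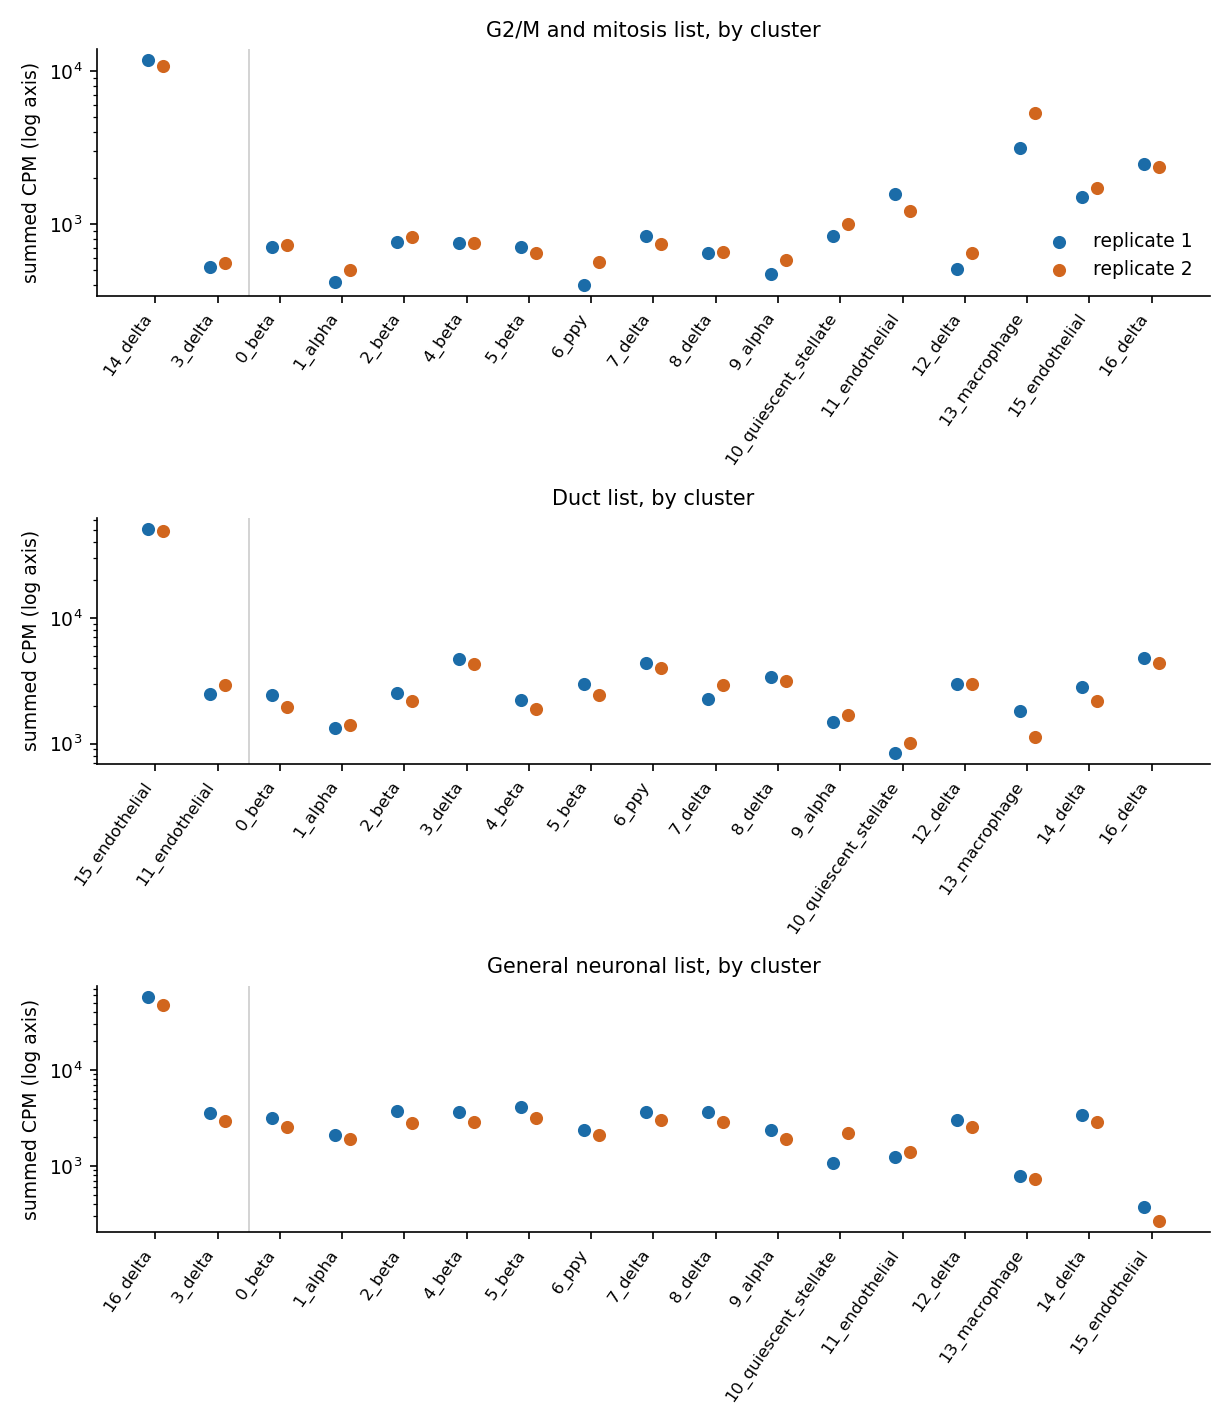
Summed CPM (log axis) of the G2 and mitosis list, the duct list and the general neuronal list in each of the 17 clusters, with 1 point per library (blue, replicate 1; orange, replicate 2). The small cluster stands at the left, followed by the large cluster of its class name: the G2 and mitosis list reached 11730 and 10817 CPM in 14_delta, the duct list 51214 and 48940 CPM in 15_endothelial, and the neuronal list 57736 and 48107 CPM in 16_delta, each above all other clusters in both libraries.

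The cycling cluster carried the genes of dividing cells at many times the level of 3_delta cells, together with the hormones of several endocrine types. Of 65 G2 and mitosis genes in the tables, 54 could be compared, 41 were at least 4-fold higher and none was 4-fold lower. Across all 11614 genes compared, 147 were at least 4-fold higher (1.27%) and 11 were at least 4-fold lower (0.0947%). Replicate 2 alone gave 365 higher genes and replicate 1 alone 258, and a minimum of 10 UMIs left 76. The list summed to 11730 and 10817 CPM in the cycling cluster, against 521 and 552 CPM in 3_delta. Its median difference was 3.48 on the log2(CPM + 10) scale, against -0.05 over all genes compared. The next highest clusters were the macrophages, at 3121 and 5291 CPM, and the nerve-like cluster, at 2455 and 2370 CPM.

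Mki67, which encodes the Ki-67 protein of dividing cells (chr7:135689784-135716361, minus strand, mm10), had 29 and 52 UMIs in the cycling cluster against 0 and 0 in 3_delta, at least 153-fold and 159-fold higher. Top2a, the topoisomerase that untangles replicated chromosomes (chr11:98992943-99024189, minus strand), reached 572 and 511 CPM in the cycling cluster, against 9.78 and 5.46 CPM in 3_delta. Mki67 was at 448 and 289 CPM in the cycling cluster, so the libraries were closer for Top2a than for Mki67. Ube2c, a ubiquitin-conjugating enzyme that works with the anaphase-promoting complex, had the largest difference in the cycling cluster, with 41 and 149 UMIs against 2 and 1 in 3_delta.

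The promoters of G2 and mitosis genes often hold a CCAAT box, bound by NF-Y, and a cell cycle genes homology region, TTTGAA, through which they are kept silent outside division. To let the reader see this, the 250 bases before the start of 4 of these genes are shown 5′ to 3′ on the gene's strand, from RefSeq's GRCm38.p6, with CCAAT and TTTGAA on either strand in capitals (ATTGG and TTCAAA on the other strand).
Ube2c (chr2:164769679-164769928, plus strand): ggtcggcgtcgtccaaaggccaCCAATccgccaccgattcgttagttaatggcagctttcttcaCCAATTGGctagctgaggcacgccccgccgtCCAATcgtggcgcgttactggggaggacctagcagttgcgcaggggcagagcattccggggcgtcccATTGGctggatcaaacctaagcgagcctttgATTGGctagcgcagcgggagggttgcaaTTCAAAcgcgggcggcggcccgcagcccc
Top2a (chr11:99024190-99024439, minus strand): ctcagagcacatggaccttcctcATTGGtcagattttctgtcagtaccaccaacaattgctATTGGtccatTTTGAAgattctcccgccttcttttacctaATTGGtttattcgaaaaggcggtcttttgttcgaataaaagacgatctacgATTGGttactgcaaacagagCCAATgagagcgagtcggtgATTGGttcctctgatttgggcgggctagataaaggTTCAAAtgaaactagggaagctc
Cdk1 (chr10:69352913-69353162, minus strand): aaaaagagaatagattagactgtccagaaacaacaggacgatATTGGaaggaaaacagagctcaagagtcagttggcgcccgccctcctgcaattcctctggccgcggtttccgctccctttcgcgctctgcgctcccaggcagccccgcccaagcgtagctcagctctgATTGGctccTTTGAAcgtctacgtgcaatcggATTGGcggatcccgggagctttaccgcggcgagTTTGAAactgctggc
Mki67 (chr7:135716380-135716629, minus strand): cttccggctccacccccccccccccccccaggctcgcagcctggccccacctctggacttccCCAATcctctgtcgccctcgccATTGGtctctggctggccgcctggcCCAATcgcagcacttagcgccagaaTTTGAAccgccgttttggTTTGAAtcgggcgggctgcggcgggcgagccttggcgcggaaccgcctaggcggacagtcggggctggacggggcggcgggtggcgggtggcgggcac
The TTTGAA nearest to the start lay 15 bases before it in Cdk1, 23 in Top2a, 29 in Ube2c and 98 in Mki67. Of the 41 genes, 34 had a promoter in the RefSeq table, and CCAAT was present in 29 (85.3%), TTTGAA in 16 (47.1%) and both in 16 (47.1%). Over the whole list of 65 genes, of which 55 had a promoter, these shares were 72.7%, 41.8% and 36.4%, so they go largely with the list. Among 9072 compared genes with a promoter, the same shares were 40.3%, 12.7% and 4.67%, and among all 27025 promoters 37.5%, 18.3% and 6.45%. The motifs are letters in a window of equal length, not measured binding.

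Genes of the kinetochore, the centromere and the spindle were among those with the largest differences in the cycling cluster. Cenpf, a kinetochore protein, had 24 and 75 UMIs against 0 and 3 in 3_delta, and Pbk, a mitotic kinase, had 22 and 66 UMIs against 0 and 0. Prc1, which bundles the microtubules of the midzone, had 21 and 38 UMIs against 2 and 2 in 3_delta. The centromere histone Cenpa had 22 and 45 UMIs against 2 and 5. Cdca8 of the chromosomal passenger complex, the spindle factor Tpx2 and Cdca3 followed, with 13 to 43 UMIs in the cycling cluster and at most 2 in 3_delta. Cenpm, another centromere protein, had 12 and 43 UMIs against 0 and 6. Cdk1, the kinase that drives entry into mitosis, had 11 and 77 UMIs against 1 and 4. Stmn1, which destabilises microtubules, reached 1685 and 1495 CPM in the cycling cluster against 9.78 and 21.2 CPM in 3_delta, or 172-fold and 70.4-fold. Tubb4b, a beta tubulin found in many cells, was 6.68-fold and 5.75-fold higher.

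Chromatin proteins that are made during division were also high. Of 26 genes on the list of chromatin and tubulin genes, 11 of 23 compared were at least 4-fold higher in the cycling cluster, and the list summed to 12163 and 13245 CPM against 2692 and 2932 CPM in 3_delta. The nerve-like cluster summed to 13280 and 11887 CPM and the macrophages to 6874 and 8905 CPM, so the sum alone does not set the cycling cluster apart. In the nerve-like cluster 3 of 21 compared were at least 4-fold higher than in 3_delta. H2afz, a histone variant, was 8.19-fold and 7.75-fold higher, and Hmgb2, a chromatin protein, 94.8-fold and 30.9-fold. Hist1h1b, a linker histone, had 13 and 31 UMIs against 0 and 2. Ptma, which is abundant in most cells, was at 1.92-fold and 2.05-fold, short of the threshold.

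Genes of DNA replication differed less than mitotic genes. Of 39 S phase genes compared (52 in the tables), 15 were at least 4-fold higher in the cycling cluster and none was 4-fold lower. The list summed to 4559 and 3611 CPM in the cycling cluster against 885 and 833 CPM in 3_delta, with a median difference of 1.67 on the log2(CPM + 10) scale. Pcna, the sliding clamp of DNA polymerase, was 4.86-fold and 6.17-fold higher. The ligase Lig1 was 11.8-fold and 8.59-fold higher, and Atad2, a chromatin ATPase, 16.8-fold and 5.50-fold. Tyms, which makes the DNA building block dTMP, stood at 2.20-fold and 4.41-fold and passed in 1 library only. Dut, Tipin, Rfc2 and Gins2 were also above 3_delta but under 4-fold in at least 1 library.

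Regulators of cell cycle entry gave a mixed picture. The list of 26 cyclins, kinases and inhibitors of entry summed to 2473 and 2472 CPM in the cycling cluster against 1735 and 1612 CPM in 3_delta. Its sum was 2443 and 2102 CPM in 0_beta and 1692 and 1869 CPM in 1_alpha. On this list, 3 of 16 compared were at least 4-fold higher in the cycling cluster than in 3_delta, and all 3 encode inhibitors of cyclin-dependent kinases. Cdkn2d, which blocks CDK4 and CDK6, was at 263 and 372 CPM against 30.3 and 35.8 CPM in 3_delta. Cdkn2c, of the same family, had 14 and 38 UMIs against 2 and 6, and Cdkn1a, which encodes p21, was 4.96-fold and 5.83-fold higher. The D cyclins did not stand apart: Ccnd2, a main D cyclin of beta cells, was at 742 and 856 CPM in the cycling cluster and 965 and 904 CPM in 3_delta, and Ccnd1 was at 1.19-fold and 1.18-fold. Cdk4, their partner kinase, was at 2.30-fold and 1.86-fold.

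Individual cycling cells differed widely in how much of their RNA came from these genes. The G2 and mitosis list took 0.150 to 3.30% of a cell's UMIs in replicate 1 (median 0.749%) and 0.295 to 3.06% in replicate 2 (median 0.792%). A cell held 3 to 46 distinct genes of the list in replicate 1 (median 14.5) and 15 to 58 in replicate 2 (median 40). The list's share was larger than that of the S phase list in 21 of 30 cells. The same was true of 17 of 28 duct-like cells and 12 of 14 nerve-like cells, so this order alone does not set the cycling cluster apart. Mki67 was seen in 11 of 20 and 9 of 10 cycling cells, against 16 of 4794 (0.334%) and 7 of 1083 (0.646%) of all other kept cells. Top2a was seen in 13 of 20 and 10 of 10 cycling cells, against 1.84% and 8.59% of the others.

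**Figure D2:**
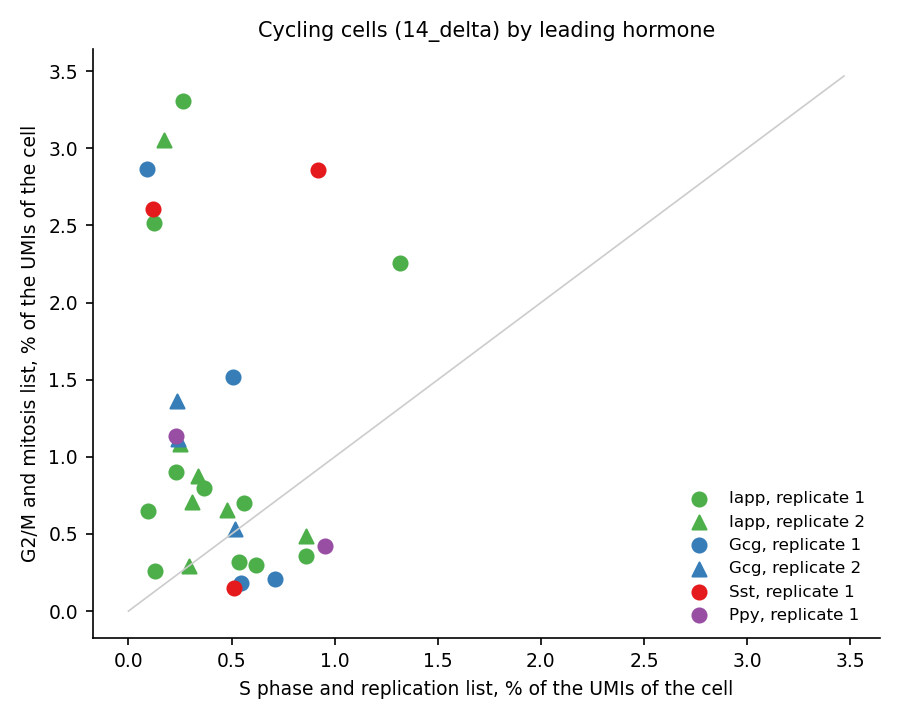
Each point is 1 of the 30 cells of cluster 14_delta, with the share of its UMIs in the S phase list (x axis, %) and in the G2 and mitosis list (y axis, %); colour gives the hormone with most UMIs, circles are replicate 1 and triangles replicate 2, and the grey line marks equal shares. The G2 and mitosis share runs up to 3.30%, 21 of 30 cells lie above the line, and cells led by Iapp, Gcg, Sst and Ppy all occur. Those led by Sst or Ppy are all of replicate 1.

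The cycling cells were not of 1 endocrine type. By the hormone with most UMIs, 18 of the 30 cells were led by Iapp (islet amyloid, co-secreted with insulin by beta cells), 7 by Gcg (glucagon, of alpha cells), 3 by Sst and 2 by Ppy (pancreatic polypeptide). All cells led by Sst or Ppy were of replicate 1, while cells led by Iapp or Gcg occurred in both libraries. Cell 10 of replicate 1, led by Sst at 7.27%, also held 5.19% Iapp and was among the cells with the highest doublet scores. The leading hormone took 1.13 to 31.6% of a cell's UMIs in replicate 1 (median 11.7%) and 5.79 to 14.8% in replicate 2. In 18 cells only 1 kind of hormone reached 1% of the UMIs, in 5 cells 2 kinds, in 6 cells 3 kinds and in 1 cell 4 kinds. Insulin cDNA was removed in the assay, so Iapp stands in for it. Iapp was not confined to beta clusters, at 4787 and 874 CPM in the duct-like cluster and 34644 and 37194 CPM in 3_delta. Free RNA and doublets were not tested as a part of the mixed cells.

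**Figure D3:**
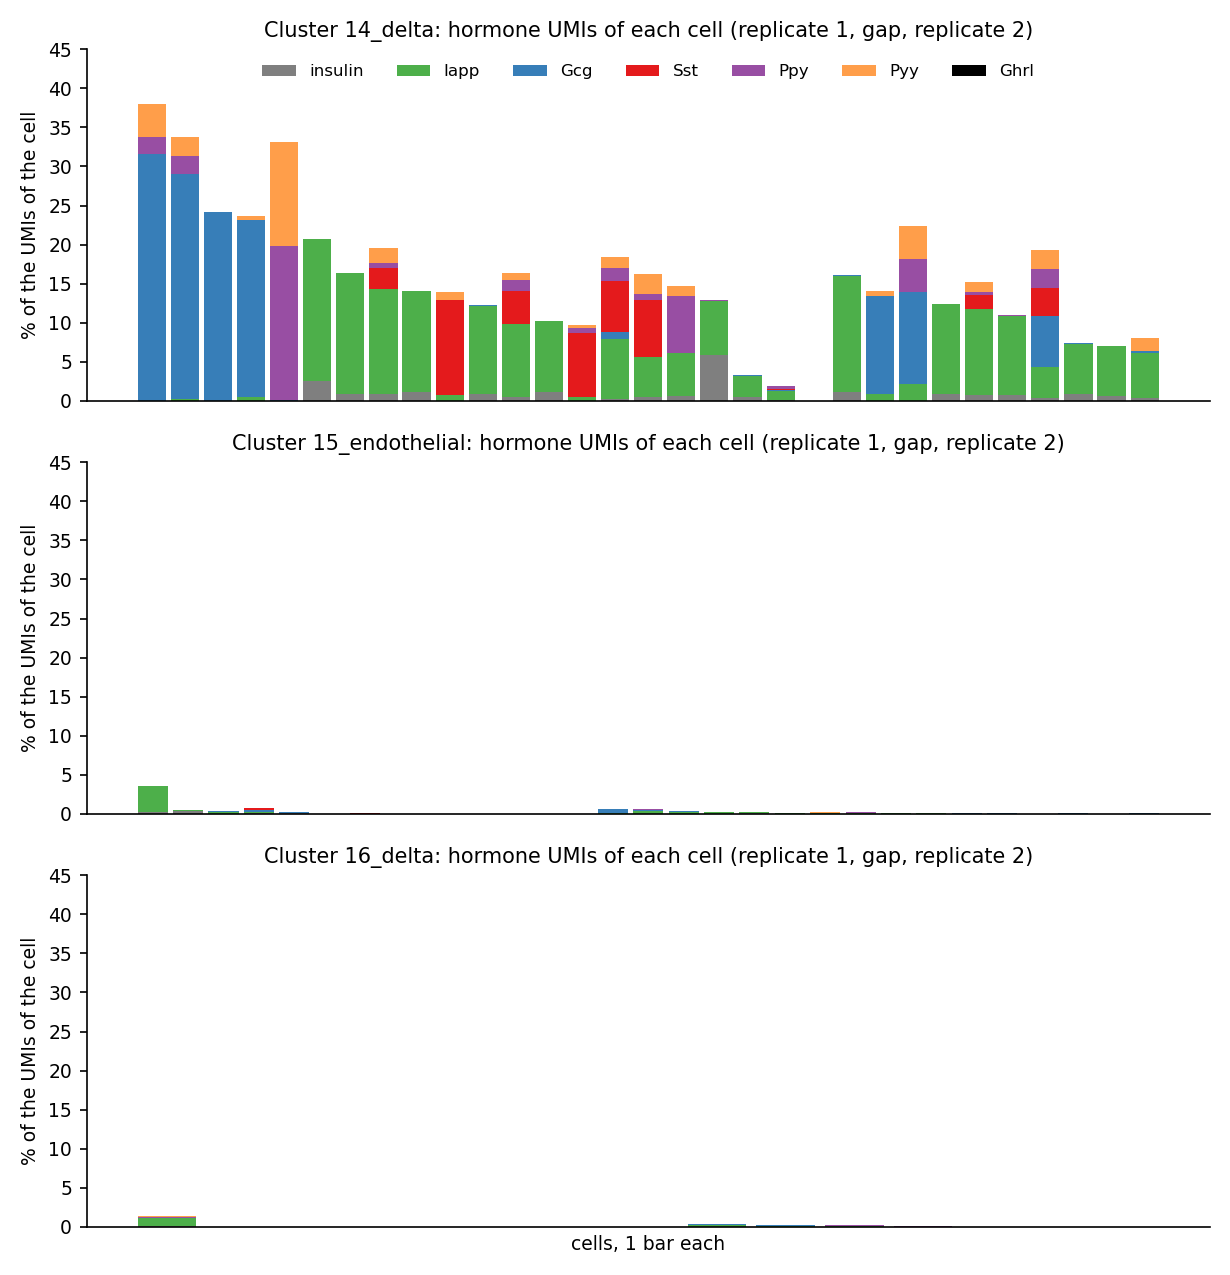
Share of each cell's UMIs (y axis, %) taken by insulin (Ins1 and Ins2 together), Iapp, Gcg, Sst, Ppy, Pyy and Ghrl, with 1 stacked bar per cell and a gap between replicate 1 and replicate 2, for clusters 14_delta, 15_endothelial and 16_delta on the same axis. In 14_delta the leading hormone takes 1.13 to 31.6% of a cell, while 27 of 28 cells of 15_endothelial and 13 of 14 of 16_delta hold no hormone at 1% or more.

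Summed over cells, the same mixture set the cycling cluster apart from 3_delta. Gcg was at 46750 and 36513 CPM in the cycling cluster against 4925 and 2409 CPM in 3_delta, and Ttr (transthyretin, high in alpha cells) was 9.37-fold and 15.2-fold higher. Of 14 beta cell genes, 5 were at least 4-fold higher in the cycling cluster (Ins1, Ins2, G6pc2, Ucn3 and Trpm5), and none was 4-fold lower. Ucn3, a peptide of mature beta cells in the mouse, was at 340 and 639 CPM against 22.5 and 51.5 CPM. Sst was at 19612 and 6317 CPM against 153701 and 111202 CPM in 3_delta, and Hhex, the transcription factor of delta cells, was at 30.9 and 22.2 CPM against 425 and 300.0 CPM. Genes shared by all endocrine cells did not separate the clusters: 1 of 21 was at least 4-fold higher, and they summed to 36040 and 35163 CPM in the cycling cluster against 35591 and 29336 CPM in 3_delta. The other genes at least 4-fold lower in the cycling cluster were Ly6h, Cd24a, Arg1, Shisal2b, Gap43, Dpp6, Sult1d1, Hgfac and Cd164l2, with 0 to 32 UMIs against 184 to 1687 in 3_delta. The macrophage list, of which 12 of 15 genes were at 0 UMIs in the cycling cluster, summed to 124 and 222 CPM against 145 and 150 CPM in 3_delta, and the endothelial list (18 of 24 at 0) to 46.4 and 94.4 CPM against 84.1 and 98.8 CPM.

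Few genes changed their transcript choice in the cycling cluster. With edgeR's test of differential transcript usage, which asks whether a transcript's share of its gene differs, with the library as a block, 3 of 2329 genes passed a false discovery rate of 0.05 (0.129%), and 39 had an unadjusted p under that value. In simulated data of the same size, 6% of 4-fold and 35% of 8-fold changes in usage were called. The simulated counts came from a mean profile shared by all clusters, with a set spread. Most changes of that size were missed there, and may have been missed in the real data. Gnas, which encodes the stimulatory G protein alpha subunit and, from an upstream start, the neuroendocrine secretory protein NESP55, passed with an adjusted p of 0.0262. The NESP55 transcript Gnas-211 took 12.5% and 15.8% of the 24 and 57 UMIs of the gene in the cycling cluster, against 62.3% and 67.9% of 1293 and 1549 UMIs in 3_delta, a difference of -50.95 ± 1.57 percentage points (SD, n = 2 libraries). Dek, a chromatin protein, used the shorter Dek-202 in 9 of 22 and 14 of 40 UMIs against 6 of 108 and 8 of 133 in 3_delta, a difference of 32.17 ± 4.50 points (adjusted p = 0.0366). The Gnas call was lost when 3_delta was replaced by the mean of the endocrine clusters (adjusted p = 1) and without the replicate block (adjusted p = 0.0636), and Dek was lost in 5 of 7 alternative settings. Without the block 1 gene passed, and with limma 6 did.

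The duct-like cluster carried keratins, claudins and secreted duct proteins and almost none of the endothelial genes that its name in the table implies. Of 45 duct genes in the tables, 21 of 35 compared were at least 4-fold higher than in 11_endothelial and none was 4-fold lower. Across all 6212 genes compared, 109 were at least 4-fold higher (1.75%) and 117 at least 4-fold lower (1.88%). Replicate 1 alone gave 386 higher genes, and all other kept cells in place of 11_endothelial gave 269. The list summed to 51214 and 48940 CPM in the duct-like cluster against 2460 and 2914 CPM in 11_endothelial. Its median difference was 4.56 on the log2(CPM + 10) scale, against 0.06 over all genes compared. The next highest cluster was the nerve-like one, at 4757 and 4383 CPM.

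Spp1, secreted osteopontin (chr5:104435118-104441050, plus strand), had 718 and 3881 UMIs in the duct-like cluster against 0 and 0 in 11_endothelial, at least 1090-fold and 285-fold higher. Krt19, the keratin commonly used to mark duct cells (chr11:100140810-100148665, minus strand), had 31 and 304 UMIs against 0 and 0, at least 47.1-fold and 22.3-fold higher. Krt19 was seen in 9 of 12 and 16 of 16 duct-like cells, and in 4 of 4802 (0.083%) and 1 of 1077 (0.093%) of all other cells. Spp1 was seen in every duct-like cell and in 6.29% and 13.6% of the other cells. Outside the duct-like cluster, at 19202 and 13409 CPM, its highest level was in 6_ppy, at 543 and 317 CPM.

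Krt8 and Krt18, which pair into filaments of simple epithelia, had 52 and 736, and 61 and 1259 UMIs in the duct-like cluster, against 0 and 0, and 3 and 1 in 11_endothelial. Clu, the secreted chaperone clusterin, reached 13720 and 14435 CPM against 370 and 439 CPM, or 37.1-fold and 32.9-fold. Cldn3, a tight junction protein, had 54 and 482 UMIs against 0 and 1. Tm4sf4, a membrane protein, had 81 and 611 UMIs against 5 and 0, and Epcam, the epithelial adhesion molecule, 59 and 399 against 1 and 1. Ambp, which encodes a plasma glycoprotein and the inhibitor bikunin, had 37 and 190 UMIs against 0 and 0, and Fxyd3, a regulator of the sodium pump, 18 and 379 against 0 and 0. Atp1b1, a subunit of that pump, had 79 and 299 UMIs against 2 and 0, and Tstd1 had 17 and 286 against 0 and 0. Cep85, a centrosomal protein, was 33.0-fold and 26.1-fold higher.

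The transcription factor Sox9, which maintains duct cells, had 13 and 98 UMIs against 0 and 0 and was seen in 7 of 12 and 16 of 16 duct-like cells. Cftr, the chloride channel of duct bicarbonate secretion, was seen in 0 of 12 cells of replicate 1, which allows a share of up to 25.0%, and in 6 of 16 cells of replicate 2. Tff2, a secreted mucosal peptide, was likewise seen in 0 of 12 and 10 of 16 cells. Cd24a, which is not restricted to ducts, was at 669 and 719 CPM in the duct-like cluster and 793 and 1379 CPM in 11_endothelial.

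Genes of epithelial polarity and junctions were higher than in 11_endothelial as well. Of 34 on that list, 7 of 21 compared were at least 4-fold higher in the duct-like cluster and none was 4-fold lower, and the list summed to 5884 and 6088 CPM against 1356 and 1050 CPM in 11_endothelial. They were Cdh1 (E-cadherin), Epcam, Crb3 (a polarity protein), Ehf (an epithelial transcription factor), Spint2 (a protease inhibitor), Rab25 (a vesicle GTPase) and Ezr (ezrin, of microvilli). Cdh1 had 10 and 86 UMIs against 1 and 0. Endocrine clusters lay between for the list sum, as in 3_delta at 2924 and 2669 CPM and in 0_beta at 2004 and 1771 CPM. Members also known from endothelium did not pass: F11r, a junction adhesion molecule, was at 1.10-fold and 2.13-fold, and Jup, plakoglobin, at 80.2 and 204 CPM against 423 and 298 CPM.

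Endothelial genes gave the opposite pattern. Of 22 compared, 18 were at least 4-fold lower in the duct-like cluster, and the list summed to 80.2 and 221 CPM against 32009 and 28293 CPM in 11_endothelial. Plvap, which spans the pores of islet capillaries, had 0 and 1 UMIs against 1162 and 394. The receptor Kdr had 0 and 0 UMIs against 302 and 145, and the junction protein Pecam1 0 and 0 against 186 and 53. Ly6c1, Flt1, Rgcc, Emcn, Esm1, Srgn, Nrp1, Egfl7, Ehd4 and Plpp1 were the others with the largest differences, at 0 to 16 UMIs against 89 to 991. In all, 17 of the 24 endothelial genes in the tables were at 0 UMIs in both libraries. No acinar gene of 26 could be compared, and that list summed to 53.5 and 124 CPM in the duct-like cluster against 0 and 31.3 CPM in 11_endothelial. The stellate list summed to 481 and 498 CPM against 5049 and 7206 CPM, and the list shared by endocrine cells to 2434 and 888 CPM against 3423 and 1896 CPM. In replicate 1, 11_endothelial also held red cell transcripts at 11648 CPM, against 0 in the duct-like cluster. 1 duct-like cell of 28 held a hormone at 1% of its UMIs, Iapp at 3.29%. In replicate 2, 1 duct-like cell with 23862 UMIs held 45 distinct G2 and mitosis genes and was the only one with Mki67, at 2 UMIs.

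Transcript usage differed in 7 of 438 genes between the duct-like cluster and 11_endothelial (1.6%, edgeR, false discovery rate 0.05), and 37 genes had an unadjusted p under 0.05. With limma 30 genes passed, and against the mean of the endocrine clusters 49 did. 11_endothelial had only 10 cells in replicate 2. In simulated data of this size 2% of simulated 4-fold and 12% of 8-fold changes were called. In 2 of the 7, the gene had at least 20 UMIs on each side. Myl6, the essential light chain of nonmuscle and smooth muscle myosin, ends in 1 of 2 coding exons. The alternative last coding bases of Myl6 and the endings of Rps24 are shown because these are the stretches between which the cells differed. Here and below, the sequences are read from mm10 with GENCODE M21 transcripts, 5′ to 3′ on the gene's strand, with the coding bases that differ in capitals and up to 15 neighbouring coding bases in lower case.
Myl6-201, chr10:128491005-128491033, minus strand: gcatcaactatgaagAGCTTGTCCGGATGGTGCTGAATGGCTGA
Myl6-206, chr10:128491736-128491764, minus strand: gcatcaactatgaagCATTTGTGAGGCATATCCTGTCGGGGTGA
Rps24-202, chr14:24495430-24495432, plus strand: ggtgctggcaaaaagTGA
Rps24-205, chr14:24494052-24494057, plus strand: ggtgctggcaaaaagAAATGA
Myl6-201, which skips the exon that ends Myl6-206, took 87.2% and 81.3% of 39 and 557 UMIs in the duct-like cluster against 45.5% and 45.3% of 200 and 128 UMIs in 11_endothelial. The difference was 38.85 ± 4.00 points (SD, n = 2 libraries; edgeR adjusted p = 1.07e-06). Macrophages had a still higher share, at 91.3% and 90.4%.

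Rps24, a protein of the small ribosomal subunit, is known for the tissue-dependent inclusion of tiny exons at its end. Rps24-205 took 0 of 31 UMIs and 0.768% of 521 UMIs in the duct-like cluster, against 31.2% and 32.8% of 231 and 186 UMIs in 11_endothelial, a difference of -31.60 ± 0.61 points (edgeR adjusted p = 2.39e-11). The count of 0 in 31 allows a share of up to 9.68%. Its partner Rps24-202 took 96.8% and 97.5% against 66.7% and 66.7%. The median share of Rps24-202 over the 16 and 15 clusters other than the duct-like one with at least 20 UMIs of the gene was 93.9% and 95.0%, near the duct-like cluster and above 11_endothelial. The other 5 genes, named after their values were seen, were S100a16, Mfge8, Anp32a, Slc25a3 and Eea1. S100a16-202 took 13 of 13 and 73 of 80 UMIs in the duct-like cluster against 7 of 61 and 1 of 23 in 11_endothelial (edgeR adjusted p = 5.90e-06). Here too the other clusters were nearer the duct-like one, with a median share of 95.2% and 95.1% over 5 and 6 clusters. Mfge8-201, the form of the milk fat globule protein with an additional coding exon of 111 bases, took 7 of 19 and 36 of 104 UMIs against 0 of 60 and 2 of 40 (edgeR adjusted p = 0.00615).

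The nerve-like cluster carried general neuronal genes, genes of acetylcholine transmission and neuropeptides, and almost none of the hormone that its name in the table implies. Of 40 general neuronal genes, 33 of 39 compared were at least 4-fold higher than in 3_delta, and 1, Scg3, a secretory granule protein of endocrine cells as well, was 4-fold lower. Across all 11752 genes compared, 553 were at least 4-fold higher (4.71%) and 125 at least 4-fold lower (1.06%), and replicate 2 alone gave 1114 higher genes. The list summed to 57736 and 48107 CPM in the nerve-like cluster against 3519 and 2926 CPM in 3_delta, with a median difference of 3.29 on the log2(CPM + 10) scale against -0.26 over all genes compared. The next highest cluster was 5_beta, at 4129 and 3141 CPM, and the lowest was the duct-like cluster, at 374 and 266 CPM.

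Prph, which encodes peripherin, an intermediate filament of peripheral neurons (chr15:99055174-99058978, plus strand), had 314 and 1018 UMIs in the nerve-like cluster against 0 and 1 in 3_delta. It was seen in all 14 nerve-like cells, at 19 to 76 UMIs in replicate 1 and 5 to 232 in replicate 2, and in 1 of 4807 and 9 of 1086 (0.829%) of the other cells. Vip, the vasoactive intestinal peptide (chr10:5639218-5647617, plus strand), had 709 and 1413 UMIs against 0 and 6, and was also seen in all 14 cells, at 12 to 241 and 7 to 617 UMIs. Among the other cells, 2 of 4807 (0.042%) and 46 of 1086 (4.24%) held a UMI of Vip. Every nerve-like cell thus held both transcripts, in numbers that ranged widely.

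Genes of the neuronal cytoskeleton and growth were among the largest differences. Sncg, gamma synuclein, was at 6658 and 5613 CPM in the nerve-like cluster, with 0 and 2 UMIs in 3_delta, and Stmn2, a stathmin of growing axons, had 456 and 1281 UMIs against 0 and 3. Tubb3, the neuronal beta tubulin, was 152-fold and 122-fold higher, and Uchl1, an abundant neuronal ubiquitin hydrolase, 56.2-fold and 44.7-fold. Gap43, which delta cells expressed too, was 4.85-fold and 6.08-fold higher, and Map1b, a microtubule protein of axons, 6.23-fold and 4.83-fold. Nsg2, a neuronal vesicle protein, had 72 and 186 UMIs against 0 and 2, Gng3, a G protein gamma subunit of neurons, 119 and 413 against 1 and 2, and Fxyd7, a sodium pump regulator of neurons, 228 and 833 against 0 and 5. The other genes with the largest differences have wider expression: Cd9, a tetraspanin, was 309-fold and 607-fold higher, and Lgals1, S100a6 and Anxa2 had 76 to 820 UMIs in the nerve-like cluster and at most 3 in 3_delta.

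Genes of neurotransmission came next. Of 18 transmitter enzymes and transporters, 7 of 13 compared were at least 4-fold higher in the nerve-like cluster and none was 4-fold lower. The 7 were Chat, Slc18a3, Slc5a7, Ache, Slc10a4, Nos1 and Slc18a2. Chat, which makes acetylcholine, had 10 and 22 UMIs against 0 and 0 in 3_delta. Slc18a3, which loads acetylcholine into vesicles, had 52 and 277 UMIs against 0 and 1, and Slc5a7, which takes up choline, 48 and 99 against 0 and 0. Ache, which breaks acetylcholine down, was at 1369 and 1169 CPM against 97.8 and 98.8 CPM. Slc10a4, a vesicle protein of cholinergic and aminergic neurons, had 57 and 183 UMIs against 0 and 1. Chat was seen in 5 of 7 and 7 of 7 cells.

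Nos1, which makes nitric oxide, was also higher, with 15 and 28 UMIs in the nerve-like cluster against 0 and 1 in 3_delta, and was seen in 6 of 7 cells of each library. The vesicular monoamine transporter Slc18a2 had 5 and 17 UMIs against 4 and 4, which was 15.1-fold and 25.1-fold in CPM. Th, the first enzyme of catecholamine synthesis, had 0 and 1 UMIs in the nerve-like cluster and 11 and 44 in 3_delta. These counts are not on 1 scale, since the clusters held 84713 and 279728, and 1022169 and 1649832 UMIs in all. Th was not called 4-fold lower, and its 0 UMIs in replicate 1 allow up to 35.4 CPM. Slc18a1, Tph1, Tph2, Gad1, Gad2 and Slc17a8 were at 0 UMIs in the nerve-like cluster.

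Among 22 neuropeptides, 6 of 11 compared were at least 4-fold higher in the nerve-like cluster. Npy, which is released by many autonomic neurons, was at 4686 and 5681 CPM against 8.80 and 12.1 CPM in 3_delta, or 532-fold and 469-fold. Tac1, the precursor of substance P, had 143 and 137 UMIs against 0 and 0, at least 575-fold and 269-fold higher, and its level was 1688 and 490 CPM. Pnoc, Cartpt and Adcyap1 had 5 to 9 UMIs each in either library, and Penk and Gal were at 0. The 2 neuropeptides that were 4-fold lower were Sst and Pyy, both hormones of the islet.

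The identity genes of parasympathetic and enteric neurons were partly present. Of 37 on the list, 13 of 24 compared were at least 4-fold higher in the nerve-like cluster and 3 were 4-fold lower. Phox2a, a homeodomain factor of autonomic neurons, had 37 and 6 UMIs, against 0 and 0 in 3_delta. Hand2 and Tlx2, factors of the neural crest lineage, had 7 and 21, and 20 and 27 UMIs, against 0 and 1 each. Ret, the receptor tyrosine kinase of GDNF family ligands, was at 295 and 189 CPM against 12.7 and 19.4 CPM, 23.2-fold and 9.77-fold, and its coreceptor for neurturin, Gfra2, had 16 and 29 UMIs against 2 and 2. Chrna3 and Chrnb4, the ganglionic nicotinic receptor subunits, had 27 and 129, and 21 and 62 UMIs, against 1 and 0, and 0 and 0. The ion channel receptors Htr3a (serotonin) and P2rx2 (ATP) had 23 and 112, and 11 and 94 UMIs, against 0 and 1, and 0 and 0. The 3 lower genes, Isl1, Etv1 and Meis2, were at 0 to 2 UMIs in the nerve-like cluster and at 238 to 627 UMIs in 3_delta, where they serve islet cells too.

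**Figure D4:**
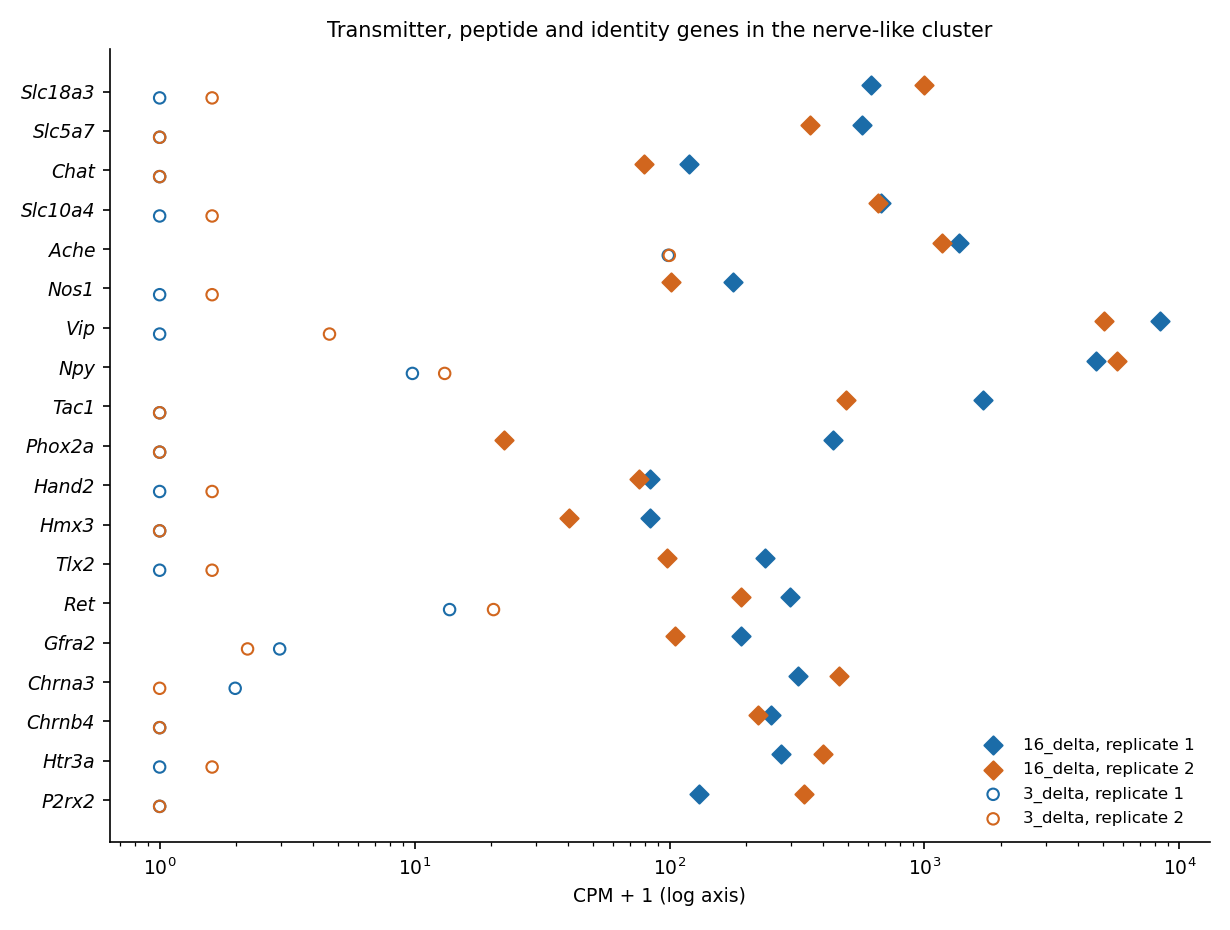
CPM + 1 (log axis) of cholinergic, nitrergic, peptide, identity and receptor genes in cluster 16_delta (filled diamonds) and 3_delta (open circles), with 1 point per library (blue, replicate 1; orange, replicate 2). The genes are a selection in which both libraries of 16_delta lie above both of 3_delta. Over the full lists, 7 of 13 transmitter genes, 6 of 11 neuropeptides and 13 of 24 identity genes compared were at least 4-fold higher. At least 4-fold lower were 0, 2 and 3. Among the genes shown, Phox2a differs most between the libraries of 16_delta (37 and 6 UMIs), and Ache has the highest level in 3_delta (97.8 and 98.8 CPM).

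Endocrine genes were lower and glial genes mostly absent in the nerve-like cluster. Of 21 genes shared by endocrine cells, 8 were at least 4-fold lower, among them the granule proteins Chga (1971 and 1176 CPM against 9665 and 8347 CPM in 3_delta) and Chgb, the prohormone convertase Pcsk2 (0.0503-fold and 0.0133-fold) and the carboxypeptidase Cpe. Pax6, Neurod1, Nkx2-2, Insm1, Slc30a8 and Fev were at 0 UMIs. The hormones Sst, Pyy, Ppy, Gcg and the retinol carrier Rbp4 were among the genes with the largest differences, at 0 to 35 UMIs in the nerve-like cluster against 3974 to 183464 in 3_delta. Gpx3, Cltrn, Shisal2b, Cd63 and Ttr were at 0 to 9 UMIs against 760 to 3028, and Ccnd2 was at 0 and 2 UMIs against 986 and 1492. Pcsk1n, a convertase inhibitor that neurons also make, was at 1.44-fold and 1.17-fold. Of 20 glial genes, 14 were at 0 UMIs, including Sox10, Gfap, Foxd3, Cdh19 and Fabp7, and the list summed to 460 and 450 CPM against 110 and 103 CPM. The only glial gene at least 4-fold higher was Pmp22, with 29 and 75 UMIs against 1 and 2. The stellate list (12 of 17 at 0) summed to 283 and 179 CPM against 0.978 and 7.27 CPM. Mki67, Top2a and Cdk1 were at 0, and the higher G2 and mitosis sum came with Tubb4b, at 2066 and 1952 CPM against 102 and 148 CPM.

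The 14 nerve-like cells were not alike. In replicate 2, cells 2 and 7, with 12284 and 12070 UMIs, gave 2.09% and 1.33% of their UMIs to the general neuronal list, against 4.78 to 5.24% in the other 5 cells of that library. They still held 37 and 28 distinct genes of the list, while no kept cell outside the cluster held more than 14 in replicate 1 and 23 in replicate 2. Their Vip UMIs were 7 and 7, against 84 to 617 in the other 5 cells. Mitochondrial UMIs took 4.78% and 2.87% of these 2 cells, against a median of 1.45% in the cluster. Whether depth or cell quality has a part in their lower shares was not tested. Npy was at 6 and 0 UMIs in them and at 170 to 503 in the other 5. Tac1 varied throughout, at 1 to 46 UMIs in replicate 1 and 0 to 74 in replicate 2.

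Transcript usage was where the nerve-like cluster differed in ways the clustering did not directly use, although gene counts and transcript counts come from the same molecules. In edgeR's test, 150 of 2404 genes used their transcripts differently from 3_delta (6.24%, false discovery rate 0.05), and 342 had an unadjusted p under 0.05. In simulated data of this size 7% of 4-fold and 26% of 8-fold changes were called, and no unchanged gene was. That holds for the set spread of the simulation and is no measure of false calls among the 150 genes. With limma 325 genes passed. Of the 150 genes, 52 had at least 20 UMIs on each side in each library and the same direction in both. The 8 of these with the largest mean difference in share of any 1 transcript, gained or lost, were Tpm1, Rtn1, Cltb, Ergic3, Morf4l2, Cdc42, Nsfl1c and Clta. Clta stood in this order by a lost transcript (Clta-206, -55.36 points), and by the gained one alone Tecr (53.80 points) would stand before it.

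Clathrin light chains coat the vesicles that bud from membranes, and both genes are known to gain short exons in neurons. The coding stretches that the nerve-like cells included, and the alternative exons of Cdc42 and Tpm1, are shown because the transcripts differ in these bases. Tpm1-209 and Tpm1-212 differ also in their last coding bases, 74 in Tpm1-209 and 83 in Tpm1-212, which are not shown.
Clta-205, chr4:44030215-44030268, plus strand: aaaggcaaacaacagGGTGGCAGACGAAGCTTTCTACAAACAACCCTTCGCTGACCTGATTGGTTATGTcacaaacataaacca
Clta-205, chr4:44031400-44031435, plus strand: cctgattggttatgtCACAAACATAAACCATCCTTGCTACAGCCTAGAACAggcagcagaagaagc
Cltb-201, chr13:54597026-54597079, minus strand: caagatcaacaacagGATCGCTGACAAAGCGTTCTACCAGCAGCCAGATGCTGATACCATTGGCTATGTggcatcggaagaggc
Cdc42-201, chr4:137322530-137322619, minus strand: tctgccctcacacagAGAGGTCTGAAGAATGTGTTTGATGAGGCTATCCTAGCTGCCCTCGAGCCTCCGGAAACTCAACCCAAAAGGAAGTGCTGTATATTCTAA
Cdc42-202, chr4:137321103-137321192, minus strand: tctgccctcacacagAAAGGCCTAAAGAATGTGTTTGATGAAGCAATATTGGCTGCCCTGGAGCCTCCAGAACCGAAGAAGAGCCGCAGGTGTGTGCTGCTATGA
Tpm1-209, chr9:67031951-67032026, minus strand: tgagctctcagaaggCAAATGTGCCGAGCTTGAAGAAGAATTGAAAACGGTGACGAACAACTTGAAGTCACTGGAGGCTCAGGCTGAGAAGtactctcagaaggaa
Tpm1-212, chr9:67032466-67032541, minus strand: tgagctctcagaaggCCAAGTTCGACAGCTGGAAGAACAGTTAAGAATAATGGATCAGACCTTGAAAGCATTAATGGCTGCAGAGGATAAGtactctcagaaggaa
Ergic3-202, chr2:156015377-156015391, plus strand: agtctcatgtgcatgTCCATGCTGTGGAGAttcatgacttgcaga
Ergic3-202, chr2:156016688-156016705, plus strand: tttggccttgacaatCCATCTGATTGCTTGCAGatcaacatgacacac
Nsfl1c-202, chr2:151502455-151502460, plus strand: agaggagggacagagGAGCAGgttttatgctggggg
Each inserted stretch of Clta, Cltb, Ergic3 and Nsfl1c has a length divisible by 3 and so keeps the reading frame, while the shown pairs of Cdc42 and Tpm1 replace each other at equal length.

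Cltb-201, with the exon of 54 bases, took 32 of 42 and 75 of 100 UMIs in the nerve-like cluster, or 76.2% and 75.0%, against 0 of 225 and 5 of 360 UMIs in 3_delta. The difference was 74.90 ± 1.82 points (SD, n = 2 libraries; edgeR adjusted p = 2.07e-30). Clta-205, with exons of 54 and 36 bases, took 56.7% and 44.8% of 67 and 181 UMIs against 0.256% and 0.439% of 391 and 456 UMIs in 3_delta, a difference of 50.39 ± 8.59 points (edgeR adjusted p = 2.34e-31). Clta-206, which has neither exon, took 2.99% and 3.31% against 57.8% and 59.2%. Both light chains thus showed longer forms in the nerve-like cells, and no other cluster with at least 20 UMIs of the gene went above 4.35% for Cltb-201 or 1.06% for Clta-205.

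Cdc42, a GTPase that shapes the actin cytoskeleton, ends in 1 of 2 alternative coding exons, of which that of Cdc42-201 is known from brain. Cdc42-201 took 50 of 67 and 162 of 244 UMIs in the nerve-like cluster, or 74.6% and 66.4%, against 7.37% and 9.28% of 217 and 345 UMIs in 3_delta. The difference was 62.19 ± 7.17 points (edgeR adjusted p = 9.18e-20), and the highest share in any other cluster was 19.4% in replicate 1 and 14.1% in replicate 2.

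Tpm1, a tropomyosin that winds along actin filaments, has mutually exclusive internal exons and several last exons. Tpm1-209 took 21 of 22 and 51 of 52 UMIs in the nerve-like cluster, against 5 of 80 and 6 of 121 in 3_delta, the largest of the 8 differences at 91.16 ± 2.77 points (edgeR adjusted p = 4.77e-15). Tpm1-212, the most used form of 3_delta, took 0 of 22 and 0 of 52 UMIs in the nerve-like cluster (which allows up to 13.6% and 5.77%), against 76.2% and 84.3% in 3_delta. Rtn1, a reticulon that shapes the endoplasmic reticulum of neurons, used the short Rtn1-201 (coding length 627 bases) in 306 of 318 and 916 of 955 UMIs, against 3 of 20 and 3 of 32 in 3_delta, where Rtn1-202 (coding length 2343 bases) took 80.0% and 87.5%. That difference was 83.88 ± 3.76 points (edgeR adjusted p = 9.56e-25), with few UMIs on the 3_delta side.

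Ergic3, a protein that cycles between the endoplasmic reticulum and Golgi, included 15 and 18 additional coding bases in 81.0% and 75.9% of 21 and 58 UMIs, against 4.14% and 4.09% in 3_delta (74.29 ± 3.57 points, edgeR adjusted p = 2.60e-20). Nsfl1c, a cofactor of the ATPase p97, included 6 bases in 20 of 20 and 57 of 58 UMIs, against 46.7% and 38.6% in 3_delta (56.52 ± 4.51 points, edgeR adjusted p = 1.24e-10). Morf4l2, a chromatin protein, used Morf4l2-215 in 67.9% and 68.8% of its UMIs against 1.95% and 3.07% (65.79 ± 0.16 points, edgeR adjusted p = 9.18e-20), with no difference in coding sequence from Morf4l2-202, its most used form in 3_delta. The 8 genes were chosen for large differences of the same direction in both libraries. That the nerve-like and 3_delta shares of these transcripts do not overlap is therefore not a separate result. Among the 8 transcripts, the libraries differed most for Clta-205.

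**Figure D5:**
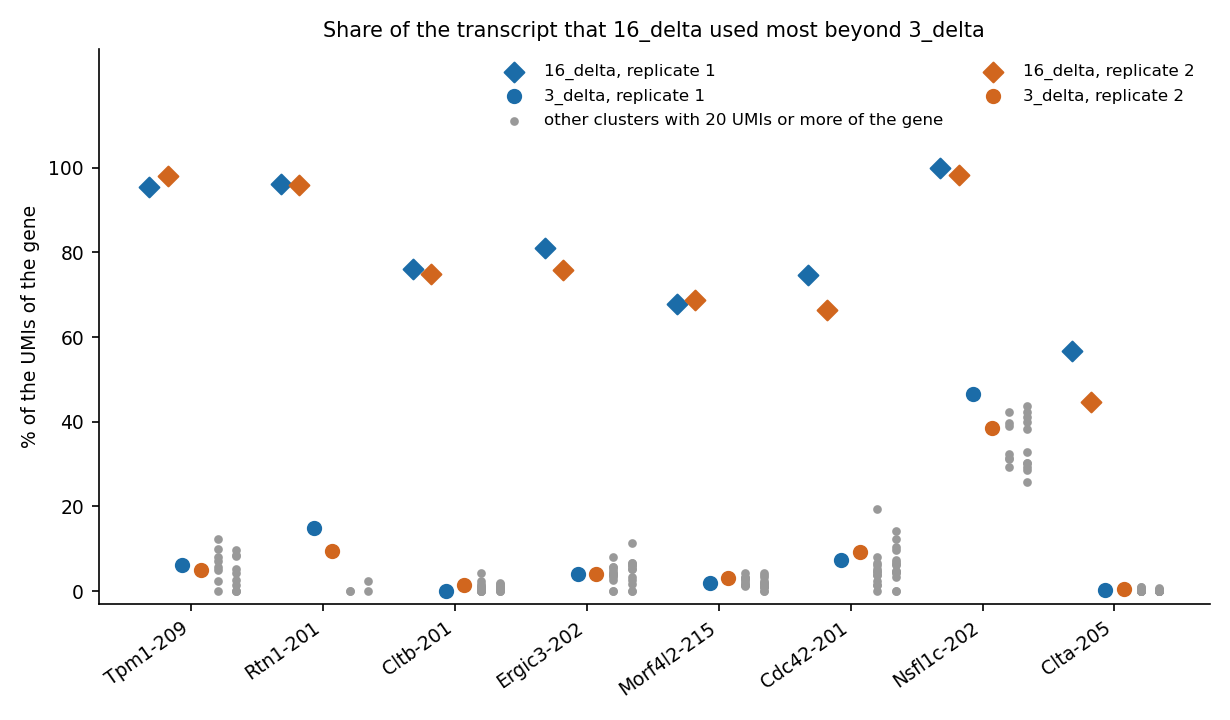
Share of a gene's UMIs (y axis, %) in the transcript that 16_delta used most beyond 3_delta, for the 8 genes named by the rule, in 16_delta (diamonds), 3_delta (large circles) and every other cluster with at least 20 UMIs of the gene (small grey dots), with blue for replicate 1 and orange for replicate 2. Both libraries of 16_delta lie above every other cluster shown in all 8 genes, from 44.8% for Clta-205 to 100% for Nsfl1c-202. The genes were chosen for their difference from 3_delta, so the gap to 3_delta is not a separate result.

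Further genes were named after their values were seen, for their known roles in neurons or because they appear above. Snap25, which drives vesicle fusion, used Snap25-201 in 97.8% and 93.4% of its UMIs in the nerve-like cluster against 58.0% and 67.3% in 3_delta (edgeR adjusted p = 3.51e-08). Klc1, a kinesin light chain, used Klc1-202 in 68.8% and 75.0% against 0 of 14 and 3 of 23 UMIs. Mapt, which encodes tau, used Mapt-203, a form with additional coding exons of 759 and 198 bases, in 4 of 33 and 51 of 121 UMIs against 0 of 32 and 1 of 31 (edgeR adjusted p = 0.00484), with a wide spread between libraries. Nnat, neuronatin, used Nnat-205 in 73.0% and 75.7% against 22.4% and 25.8%, and Tecr, an enzyme of fatty acid elongation, used Tecr-203 in 115 of 156 and 388 of 517 UMIs against 56 of 265 and 106 of 529. The NESP55 transcript Gnas-211 took 7.41% and 16.7% against 62.3% and 67.9% (edgeR adjusted p = 1.49e-05). The nerve-like and cycling clusters share 3_delta as their reference, so the low Gnas-211 share in both is not independent. For Myl6, the form used more was Myl6-206, at 87.1% and 94.8% in the nerve-like cluster against 67.1% and 65.9% in 3_delta.

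Some neuronal regulators of splicing were also higher. On a list of 23 splicing regulators, not all of them neuronal, 5 of 22 compared were at least 4-fold higher in the nerve-like cluster and none was 4-fold lower. The list summed to 2503 and 2692 CPM against 976 and 895 CPM in 3_delta. Its median difference was small, at 0.13 on the log2(CPM + 10) scale against -0.26 over all genes compared. Rbfox1 had 22 and 76 UMIs against 0 and 1, Elavl2 25 and 60 against 3 and 3, and Elavl3 9 and 24 against 1 and 1, and these encode RNA-binding proteins of neurons. Elavl4, of the same family, was 9.94-fold and 7.95-fold higher, and Celf6 18.4-fold and 14.3-fold. Celf4 stood at 3.52-fold and 4.57-fold and did not pass in replicate 1.

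The clusters were found again by the authors' other clusterings to differing degrees. In the clustering of the same cells by transcripts, 19 of 20 and 10 of 10 cycling cells lay in 1 cluster, which held 20 and 11 cells in all. All 12 and 16 duct-like cells lay in a cluster of exactly 12 and 16. Of the nerve-like cells, 7 and 6 lay in a cluster named 15_beta, which held 40 and 12 cells, and 1 lay in a delta cluster. In the clustering of replicate 1 alone by genes, 14 of 20 cycling cells made up a cluster of 14, and 12 of 12 duct-like cells made up a cluster that the authors' table calls ductal, while the 7 nerve-like cells lay in a delta cluster of 536. In the clustering of replicate 1 alone by transcripts, 17 of 20 cycling cells made up a cluster of 17 and the 7 nerve-like cells a cluster of 7, while the 12 duct-like cells lay in a stellate cluster of 66. In the clustering of replicate 2 alone by transcripts, 9 of 10 cycling, 16 of 16 duct-like and 5 of 7 nerve-like cells lay together in 1 cluster of 67 cells named 6_endothelial.

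Cells with such genes also occurred outside the 3 clusters, at shares that followed depth. Cells with at least 5 distinct genes of the G2 and mitosis list made up 96 of 4794 (2.00%) and 551 of 1083 (50.9%) of the cells outside the cycling cluster. When every cell was thinned to 1000 UMIs and 3 distinct genes were asked, 15 of 20 and 10 of 10 cycling cells passed, against 96 of 4330 (2.22%) and 20 of 1083 (1.85%) cells outside, with 464 cells of replicate 1 too shallow to be used. Among the thinned macrophages, 11 of 50 and 2 of 7 passed. Unthinned, the highest number of distinct G2 and mitosis genes in 1 cell outside the cycling cluster was 31 in replicate 1, in 11_endothelial, and 48 in replicate 2, in the macrophages.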

How the data were processed

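The samples described are the 2 libraries of the modified 5' assay. The deposited tables give raw UMI counts of genes, and of annotated transcripts, in each cell, not normalized, and per the labels the genome build was mm10. Per the submitters' processing notes Seurat was used. The aligner, counter, strand use and meaning of "subset" in the tables are not given in the sources used here. Clusters are those of the authors' deposited merged cell table, made from gene counts, and only its 4814 and 1093 barcodes (of 6395 and 2124) were kept. Of 69994 transcripts, 69648 had a gene in GENCODE M21 and held 99.9% of the UMIs.

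UMIs were summed per cluster and library and scaled to CPM. The libraries share every cluster, so the library was a block in the usage test: edgeR 4.0.16 diffSpliceDGE on 34 sums of 17 clusters in 1 model with 16 residual degrees of freedom, TMM scaling, transcripts with at least 10 UMIs and 5% of their gene, Simes p-values for each gene, adjusted by Benjamini-Hochberg. It was tested on simulated data with 200 changed genes, drawn from a mean profile shared by all clusters with a set spread. Shares are differences within each library, as mean ± SD of 2. Scrublet (scanpy 1.11.5, expected rate 0.06) gave doublet scores, and hormones, lists and thinning used Python 3.11.15. Alternatives were other scalings, minimums and references, limma 3.58.1, no replicate block, and leaving out cells by doublet score or 1 library.

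Genes named were the 6 markers, the 12 genes with the largest ratio in the weaker library, up to 8 members of each list by UMIs, and 8 genes by difference in share with at least 20 UMIs on each side. Cluster members, the 24 gene lists and these rules were chosen with earlier results of these data known, so no list is independent support. List symbols without a row in the tables were not analysed here. Some genes counted in these totals are not reported by name here.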

Additional observations from a re-analysis of the deposited data

Results flagged for a closer look

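Signal of the nerve-like and duct-like genes also appeared in barcodes that the authors' cell table leaves out and that no comparison used. In replicate 1, a left-out barcode of 4164 UMIs held 28 distinct genes of the general neuronal list, with 26 UMIs of Vip and 5 of Prph, and another of 1473 UMIs held 18, with 4 of Vip and 2 of Prph. No kept cell outside the nerve-like cluster held more than 14 in that library. In replicate 2, left-out barcodes of 26672 and 20910 UMIs held 38 and 37 neuronal genes, with 39 and 30 UMIs of Vip, above the highest count of 23 in kept cells outside the cluster. Mitochondrial UMIs took 9.45% and 12.03% of these, and 3.27% and 11.4% of the 2 in replicate 1, against medians of 1.45% and 0.738% in the nerve-like cluster of the same libraries.

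In replicate 2, left-out barcodes of 14758 and 2966 UMIs held 26 and 24 distinct duct genes, against at most 21 in kept cells outside the duct-like cluster. The deeper one held 10 UMIs of Krt19, 118 of Spp1 and 722 of Iapp, and the other held 1 of Krt19 and 4 of Spp1. The reason for leaving them out is not stated.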

How the results depend on the processing

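Counts of genes that used their transcripts differently were, in the cycling, duct-like and nerve-like comparisons, 3, 7 and 150 with edgeR and 6, 30 and 325 with limma. Without the replicate block they were 1, 5 and 101, and against the mean of 4 endocrine clusters 4, 49 and 180. RLE scaling, another minimum of UMIs and leaving out cells with high doublet scores gave 2 to 3, 5 to 8 and 112 to 152. With 1 library at a time, called genes kept the direction of their most changed transcript in 3 to 3, 7 to 7 and 146 to 148. For named genes in the nerve-like cluster, 111 of 112 alternative values stayed on their side of the threshold and 1 lost the call. In the duct-like cluster 33 of 43 did so, 9 lost the call and 1 reversed: Anp32a against the endocrine mean, with an adjusted p of 1. In the cycling cluster it was 14 of 21, with 7 lost.

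Genes at least 4-fold higher numbered 76 with a minimum of 10 UMIs and 350 with 1 UMI in the cycling cluster (147 as reported), and 956 with 1 UMI in the nerve-like cluster (553 as reported). The duct-like count was 269 against all other kept cells (109 as reported), where the ratio of Spint2 turned to 0.951. Leaving out 1 library gave 258 to 365 genes for the cycling, 162 to 386 for the duct-like and 777 to 1114 for the nerve-like cluster. The G2 and mitosis sum in the cycling cluster was 12072 CPM without high doublet scores and 13357 CPM without hormones in the total, against a mean of 11274, and 10817 to 11730 with 1 library. The duct and neuronal sums ranged from 48940 to 51214 and from 48107 to 57736 CPM with 1 library. Asked for 5% of a cell's UMIs, 0 duct-like and 0 nerve-like cells were led by insulin or Iapp, against 64.3% and 57.1% with no minimum.

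Shares of cells outside the clusters with many list genes differed with the threshold and the depth. With thresholds of 5, 5 and 8 genes, as reported, they were 2.00% and 50.9% for the G2 and mitosis list, 37.9% and 89.8% for the duct list and 6.01% and 72.3% for the neuronal list. With thresholds of 8, 8 and 12 genes they were 0.292% and 14.1% for the G2 and mitosis list, 9.43% and 69.9% for the duct list and 0.333% and 32.2% for the neuronal list. With cells thinned to 1000 UMIs and the threshold lowered to 3 genes for each list, 2 choices changed together, they were 2.22% and 1.85%, 36.3% and 32.4%, and 37.9% and 32.7%. Depth limits all gene calls in the duct-like comparison, where 11_endothelial had 10 cells in replicate 2.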
